A study of Mus musculus with 28 samples.

Results

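Cell cycle and replication genes were followed as a set of 39 listed gene symbols, chosen by name and not by their values, out of 43280 gene rows in the deposited tables. All 39 were found. They comprised 3 D-type cyclins, 3 inhibitors of cyclin-dependent kinases, 3 genes of the E-type cyclin and Cdk2 step, 10 genes of replication origin licensing and the replication fork, 6 genes of mitotic entry, 4 mitotic kinases, 5 genes of the spindle checkpoint and its target, and 5 genes of chromosomes, spindle motors and proliferation. All 39 are annotated as protein-coding.

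The 28 libraries held polyadenylated RNA of mouse testes and were made with an Ion Total RNA-seq kit and sequenced on an Ion Proton. NANOS2 KO testes (CD1 background) were taken whole, 2 on each of 9 days from 42 to 50 days after retinoic acid, 18 in all; loss of NANOS2 is known to deplete the germ line, and the labels call the environment germ cell-deficient. Sertoli cells, the somatic support cells of the seminiferous tubule, were sorted as red-fluorescent cells of RFP heterozygote, Amh-Cre-positive mice, between 42 and 50 days. They formed 5 groups of 2 by their most enriched stages, which were I-III in group B, IV-VI in C, VII-VIII in D, IX-X in E and XI-XII in A. Every animal, KO and sorted alike, had received WIN 18,446, an inhibitor of retinoic acid synthesis, for 7 days and then retinoic acid, which synchronises spermatogenesis. The sorted libraries derive from C57BL/6 x 129s4/SvJae mice, except group A replicate 1, whose strain is labelled as C57BL/6 x Amh-Cre background. Amh-Cre is meant to limit the reporter to Sertoli cells. A whole KO testis also holds interstitial and vascular cells, although its cell type label is Sertoli. The labels do not say that replicates were separate animals, so p-values measure the spread between these samples, which may be technical.

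Total counts were 1336742 to 4370138 in KO libraries and 1901743 to 5279746 in sorted libraries, so that 3 counts amounted to 0.640 to 2.00 and 0.686 to 1.88 CPM, counts scaled to the library total, for counting error only. Of 25 Sertoli marker genes, none had a median under 1 CPM in either set, and their summed level was 15852 to 18110 CPM in KO testes and 11387 to 18716 CPM in sorted cells. Germ cell markers were low in the KO: the medians of 8 of 15 spermatogonial, 15 of 18 spermatocyte, 12 of 15 round spermatid and 15 of 17 elongating spermatid genes were under 1 CPM there, against 1 spermatogonial gene and none of the other 3 lists in sorted cells. Summed spermatocyte markers were 62.3 to 109 CPM in KO testes and 2138 to 4359 CPM in sorted cells. In KO testes this sum came mostly from Hspa2 (32.2 to 68.0 CPM) and Mybl1 (26.5 to 47.2 CPM). Summed elongating spermatid markers were 141 to 207 CPM in KO testes, mostly from Odf2 (138 to 205 CPM), and 5066 to 28488 CPM in sorted cells. The sorted libraries labelled Sertoli thus carried germ cell transcripts at levels far above the KO. In each library of groups A, B, C and E, elongating spermatid markers even summed above the Sertoli markers. In group A replicate 2 these sums were 28488 and 13742 CPM. In both libraries of group D elongating spermatid markers were lower, at 5066 and 7048 CPM against 15946 and 15918 CPM of Sertoli markers. Leydig cell markers summed to 2002 to 6275 CPM in KO testes and 78.0 to 530 CPM in sorted cells. In sorted cells Ptgds was the highest of them, at 47.4 to 489 CPM, followed by Star, at 14.4 to 34.5 CPM. Insl3 and Lhcgr were at 0 in all 10 sorted libraries. Among KO libraries, day 49 replicate 1 stood apart, with 0.715% mitochondrial counts and 2418 CPM of stromal markers, against 2.33 to 3.24% and 1135 to 1952 CPM in the others. The replicates of groups A, B and C stood apart from each other in these genes: 15, 10 and 14 of the 39 members differed over 2-fold between the 2 replicates (38.5, 25.6 and 35.9%, against 22.3, 16.1 and 20.2% of all genes). In groups D and E 3 and 2 members did (7.69 and 5.13%, against 12.8 and 5.19% of all genes). Replicates 1 and 2 of these groups did differ in mitochondrial counts, with 12.5 and 4.61% in D and 11.4 and 6.06% in E.

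A dividing cell passes from growth into DNA synthesis when D-type and then E-type cyclins activate their kinases, a step held back by inhibitors such as p21 and p27. Replication origins are licensed by loading of the MCM helicase, and entry into and exit from division depend on cyclin B with Cdk1, the Aurora and Polo kinases, and the anaphase-promoting complex with its activator Cdc20. Adult Sertoli cells are known as non-dividing cells, while spermatogonia divide by mitosis and spermatocytes use many of the same genes for meiosis.

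Promoters of members with the largest and the smallest differences between KO testes and sorted cells are shown first, to let their short motifs be read side by side. These are windows of 300 bases (250 before and 50 after the start of transcription), read 5′ to 3′ on the gene's own strand from RefSeq for build GRCm38.p6, for the 4 members with log2 fold changes beyond -6 and for both members that did not pass the test in that comparison. Capitals mark the letters TTTGAA, the cell cycle gene homology region (CHR) of late cell cycle genes, and CCAAT, the CCAAT box, on either strand (TTCAAA and ATTGG).
Bub1, chr2:127831810-127832109, minus strand: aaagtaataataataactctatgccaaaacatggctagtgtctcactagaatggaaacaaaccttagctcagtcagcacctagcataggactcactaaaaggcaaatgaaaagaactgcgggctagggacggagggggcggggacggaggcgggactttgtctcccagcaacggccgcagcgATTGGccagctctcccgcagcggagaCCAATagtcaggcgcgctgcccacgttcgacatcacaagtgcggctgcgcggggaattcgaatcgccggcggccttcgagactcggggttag
Plk1, chr7:122159185-122159484, plus strand: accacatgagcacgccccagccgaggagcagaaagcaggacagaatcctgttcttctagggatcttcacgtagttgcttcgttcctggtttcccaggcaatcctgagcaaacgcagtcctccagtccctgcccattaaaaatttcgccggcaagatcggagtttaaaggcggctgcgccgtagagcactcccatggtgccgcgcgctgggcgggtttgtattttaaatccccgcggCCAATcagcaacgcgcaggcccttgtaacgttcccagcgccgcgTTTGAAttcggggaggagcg
Ccnb1, chr13:100786437-100786736, minus strand: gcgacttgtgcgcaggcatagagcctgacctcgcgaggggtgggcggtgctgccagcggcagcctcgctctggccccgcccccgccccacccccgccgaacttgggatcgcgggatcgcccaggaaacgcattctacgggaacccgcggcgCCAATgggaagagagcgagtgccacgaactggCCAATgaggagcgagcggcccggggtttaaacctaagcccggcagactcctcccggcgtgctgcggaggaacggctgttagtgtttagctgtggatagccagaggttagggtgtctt
Cdc20, chr4:118437294-118437593, minus strand: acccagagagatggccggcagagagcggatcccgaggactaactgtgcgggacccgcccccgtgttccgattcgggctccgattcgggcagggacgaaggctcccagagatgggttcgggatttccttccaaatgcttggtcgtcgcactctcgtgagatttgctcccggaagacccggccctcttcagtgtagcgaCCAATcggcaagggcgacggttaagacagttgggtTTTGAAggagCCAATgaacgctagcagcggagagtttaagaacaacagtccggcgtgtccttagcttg
Cdc25b, chr2:131186698-131186997, plus strand: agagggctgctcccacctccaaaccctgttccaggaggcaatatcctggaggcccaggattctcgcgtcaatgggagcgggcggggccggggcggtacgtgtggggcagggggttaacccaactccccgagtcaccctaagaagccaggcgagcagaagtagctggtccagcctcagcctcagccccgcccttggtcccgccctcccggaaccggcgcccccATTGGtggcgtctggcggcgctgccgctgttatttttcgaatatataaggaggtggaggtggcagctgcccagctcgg
Cdk2, chr10:128705002-128705301, minus strand: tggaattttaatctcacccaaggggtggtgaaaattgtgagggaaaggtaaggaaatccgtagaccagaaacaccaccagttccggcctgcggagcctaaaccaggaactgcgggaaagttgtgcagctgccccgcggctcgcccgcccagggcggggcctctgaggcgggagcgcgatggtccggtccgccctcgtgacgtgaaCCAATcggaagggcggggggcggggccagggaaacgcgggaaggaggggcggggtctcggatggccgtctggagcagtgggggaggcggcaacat
Of the windows of the 4 lower genes, those of Plk1 and Cdc20 held the CHR letters TTTGAA and all held a CCAAT box. The windows of Cdc25b and Cdk2 also held a CCAAT box but not TTTGAA. Other spellings of the CHR were not searched. Promoters were at hand for 30 of the 39 members, with 34 windows in all. A member was counted once if any of its windows held the letters, whereas shares of all 32851 promoters are per window. Among members called and at least 16-fold lower in KO testes, a limit chosen after the values were seen, 7 of 10 with a promoter held TTTGAA (70.0%), against 4 of the other 20 and 17.9% of all 32851 promoters. The CCAAT box was in 9 of these 10, in 14 of the other 20 and in 37.4% of all promoters. E2F-type letters (TTTCCCGC, TTTCGCGC, TTTGCCGC or TTTGGCGC, either strand) were in 1 of the 10, 7 of the other 20 and 2.26% of all. These are matches of letters, given as a description.

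KO testes were first set against the sorted cells to ask how cell cycle genes stand where germ cells are missing. Of the 39 members, 33 were lower in KO testes and 4 higher (edgeR quasi-likelihood test, Benjamini-Hochberg adjusted p under 0.05). That is 84.6% lower, where 47.0% of the 15777 genes tested were lower, 38.0% were higher and 85.1% were called in either direction. The median log2 fold change, KO over sorted, was -2.63 over the members and -0.17 over all genes tested. At least 16-fold lower were 13 members, or 33.3%, against 11.9% of all genes. Every KO library lay below every sorted library for 23 members and above for 1, where the shares of all genes were 24.6% and 17.2%. In bulk samples, fewer cells of a type and less RNA per cell cannot be told apart, and germ cells, strain and whole tissue against sorted cells cannot be told apart either. With scaling by library totals, an alternative added after the data were seen, the median of all genes was 0.21 and that of the members -2.26, a distance of -2.47 in place of -2.46; Ccnd1 and Mcm6 then missed the threshold (-0.24 and -0.20), and Cdk2 and Cdc25b passed as higher (0.51 and 0.49). Germ cell markers moved with the members: of those tested, 11 of 14 spermatogonial, 16 of 17 spermatocyte, 15 of 15 round spermatid and 17 of 17 elongating spermatid genes were lower in KO testes. Their part in the result was not tested.

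**Figure D1:**
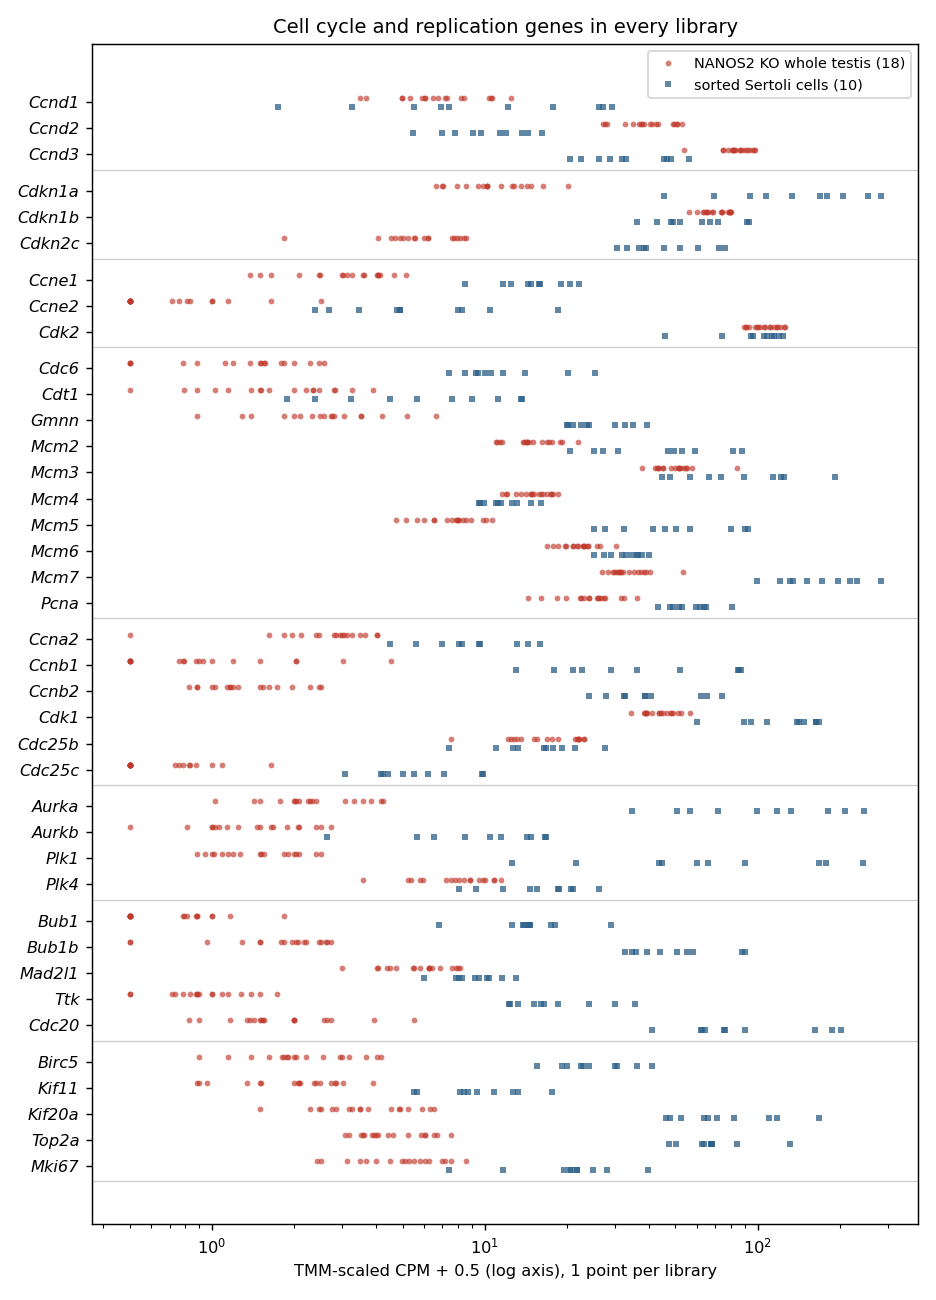
Level of each of the 39 members in every library, as TMM-scaled CPM plus 0.5 on a log axis, with 18 NANOS2 KO whole testes above and 10 sorted Sertoli cell libraries beneath in each row. The KO points lie left of all sorted points in 23 rows and right of them for Ccnd2.

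The D-type cyclins, which partner Cdk4 and Cdk6 at the start of the cycle, were split. Ccnd2 had 26.7, 38.9 and 52.3 CPM in KO testes (lowest, median, highest), against 4.98, 10.0 and 15.7 CPM in sorted cells. Every KO library was above every sorted one, and the log2 fold change was 2.01 (SE 0.14, edgeR adjusted p = 7.61e-13). Ccnd3 had 53.3, 84.0 and 97.2 CPM in KO testes, against 20.1, 31.9 and 55.8 CPM in sorted cells; the ranges met at their edge, and it was higher by 1.24 (SE 0.14, edgeR adjusted p = 5.91e-09). Ccnd1 had 3.01, 6.11 and 12.0 CPM in KO testes, against 1.24, 9.30 and 28.7 CPM in sorted cells, whose range enclosed that of the KO. Its log2 fold change of -0.62 (SE 0.25, edgeR adjusted p = 0.0257) did not pass with DESeq2 (adjusted p = 0.05004) or without replicate 2 of group A, B, C or D or replicate 1 of group E (fold changes of -0.23 to -0.58, adjusted p = 0.0548 to 0.426). Per kilobase of exon, Ccnd3 was the highest of them in KO testes at 9.54 ± 1.18 CPM per kb, followed by Ccnd2 at 4.20 ± 0.87 and Ccnd1 at 1.41 ± 0.54 (SD, n = 18). In sorted cells Ccnd3 was at 4.04 ± 1.40, Ccnd1 at 2.81 ± 2.24 and Ccnd2 at 1.08 ± 0.37 CPM per kb (SD, n = 10), so that the spread of Ccnd1 covered both of the others.

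The CDK inhibitors also went in both directions. Cdkn1a, which encodes p21 and answers to p53, had 6.15, 9.70 and 19.7 CPM in KO testes, against 44.9, 151 and 283 CPM in sorted cells. No libraries overlapped, and the log2 fold change was -3.76 (SE 0.16, edgeR adjusted p = 2.74e-17). Cdkn2c, the gene of p18, had 1.33, 5.29 and 8.07 CPM in KO testes, against 30.0, 41.8 and 75.6 CPM in sorted cells, again without overlap (log2 fold change -3.10, SE 0.17, edgeR adjusted p = 5.69e-15). Cdkn1b, which encodes p27 and is known to restrain Sertoli cell division, had 55.5, 70.5 and 79.1 CPM in KO testes, against 35.8, 56.8 and 92.6 CPM in sorted cells. The sorted range enclosed that of the KO, and the small difference of 0.25 (SE 0.10) passed the test (edgeR adjusted p = 0.0223).

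At the E-type cyclin step, Ccne1 and Ccne2, which drive the start of DNA synthesis through Cdk2, were lower in KO testes by log2 fold changes of -2.48 (SE 0.17) and -4.56 (SE 0.42). Ccne2 was at 0 in 9 of the 18 KO libraries and in none of the sorted ones. Cdk2 itself, the kinase, had 88.4, 105 and 126 CPM in KO testes, against 45.4, 107 and 123 CPM in sorted cells. The medians were nearly equal and the log2 difference was 0.12 (SE 0.09, edgeR adjusted p = 0.215), although Cdk2 passed as higher without group C replicate 2, with 0.29 (adjusted p = 7.82e-04, against 0.04 and adjusted p = 0.657 without group C replicate 1), with RLE scaling (0.19, adjusted p = 0.0421) and with DESeq2 (0.19, adjusted p = 0.0250). Per kilobase, Cdk2 was the highest member in KO testes at 17.1 ± 1.93 CPM per kb (SD, n = 18), followed by Cdkn1b at 15.4 ± 1.67, and these neighbours did not differ beyond their spread.

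Of the 10 licensing and replication genes, 9 were lower in KO testes and Mcm4 was higher. The 6 MCM helicase subunits did not move together: the log2 fold changes were -2.87 for Mcm5, -2.35 for Mcm7, -1.59 for Mcm2, -0.77 for Mcm3, -0.58 for Mcm6 and 0.37 for Mcm4. Mcm4 had 11.1, 14.5 and 18.1 CPM in KO testes, against 9.05, 10.8 and 15.5 CPM in sorted cells, so the ranges overlapped (SE 0.12, edgeR adjusted p = 0.00752). Mcm7 had 26.5, 31.4 and 52.8 CPM in KO testes, against 99.0, 162 and 283 CPM in sorted cells, with no overlap. Mcm3 had 37.3, 50.0 and 83.4 CPM in KO testes, against 44.1, 80.9 and 192 CPM in sorted cells, with overlap. The loaders Cdc6 and Cdt1 were lower by -4.15 and -2.22, and geminin (Gmnn), which blocks Cdt1, by -3.51. Pcna, the sliding clamp of the fork, had 13.9, 24.5 and 35.8 CPM in KO testes, against 42.8, 55.6 and 80.1 CPM in sorted cells, without overlap (log2 fold change -1.22, SE 0.11).

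The mitotic entry genes included Ccnb1, the B-type cyclin that activates Cdk1. Ccnb1 had 0, 0.385 and 4.03 CPM in KO testes, where 5 libraries were at 0, against 12.5, 32.1 and 86.8 CPM in sorted cells. Every KO library was lower, and the log2 fold change was -6.10 (SE 0.34, edgeR adjusted p = 2.52e-14), from 36 counts over all KO libraries. Ccnb2, its close relative, had 0.322, 0.720 and 2.01 CPM in KO testes, against 23.5, 38.3 and 73.6 CPM in sorted cells (log2 fold change -5.54, SE 0.22). Cdk1, their kinase, was lower by less: it had 34.0, 43.5 and 56.0 CPM in KO testes, against 59.7, 140 and 167 CPM in sorted cells (-1.49, SE 0.09). Ccna2, the cyclin of S phase and mitotic entry, and the phosphatase gene Cdc25c were lower by -1.98 and -4.77. Cdc25b, which encodes another phosphatase that activates CDKs, had 7.01, 16.8 and 22.7 CPM in KO testes, against 6.89, 16.2 and 27.0 CPM in sorted cells, and did not pass the test (0.11, SE 0.15, edgeR adjusted p = 0.517).

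All 4 mitotic kinases and all 5 spindle checkpoint genes were lower in KO testes, with median log2 fold changes of -4.46 and -5.28. Plk1, the Polo kinase of mitotic entry and spindle assembly, had 0.383, 1.00 and 2.01 CPM in KO testes, against 12.1, 62.4 and 243 CPM in sorted cells (-6.14, SE 0.28). Aurka, the Aurora kinase of spindle poles, had 0.528, 1.77 and 3.74 CPM in KO testes, against 34.0, 109 and 245 CPM in sorted cells (-5.76, SE 0.23). Neither gene overlapped between the groups. Aurkb, the Aurora kinase of the chromosomal passenger complex, was lower by -3.15 and Plk4, the kinase of centriole duplication, by -1.09. Bub1, a checkpoint kinase at kinetochores, was among the 4 members with log2 fold changes beyond -6, whose order changed with single libraries (without KO day 45 replicate 1, Ccnb1 was at -6.72). Bub1 had 0, 0.287 and 1.34 CPM in KO testes, against 6.28, 14.0 and 28.6 CPM in sorted cells (-6.35, SE 0.32). Those KO values came from 12 counts in all, with 8 of 18 libraries at 0, and lay mostly under the level of 3 counts. Cdc20, which activates the anaphase-promoting complex, had 0.322, 1.05 and 5.00 CPM in KO testes, against 40.5, 75.2 and 203 CPM in sorted cells (-6.03, SE 0.26). The other checkpoint genes Ttk, Bub1b and Mad2l1 were lower by -5.28, -5.24 and -0.73.

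The 5 remaining members were all lower in KO testes. Kif20a, a kinesin of cytokinesis, was lower by -4.61, Top2a, the topoisomerase that untangles chromosomes, by -4.07, and Birc5, the passenger protein survivin, by -3.80. Kif11, the motor that builds the bipolar spindle, was lower by -2.63. Mki67, the common marker of proliferating cells, was lower by -2.17 (SE 0.21), with 1.93 to 8.04 CPM in KO testes and 6.91 to 39.2 CPM in sorted cells.

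**Figure D2:**
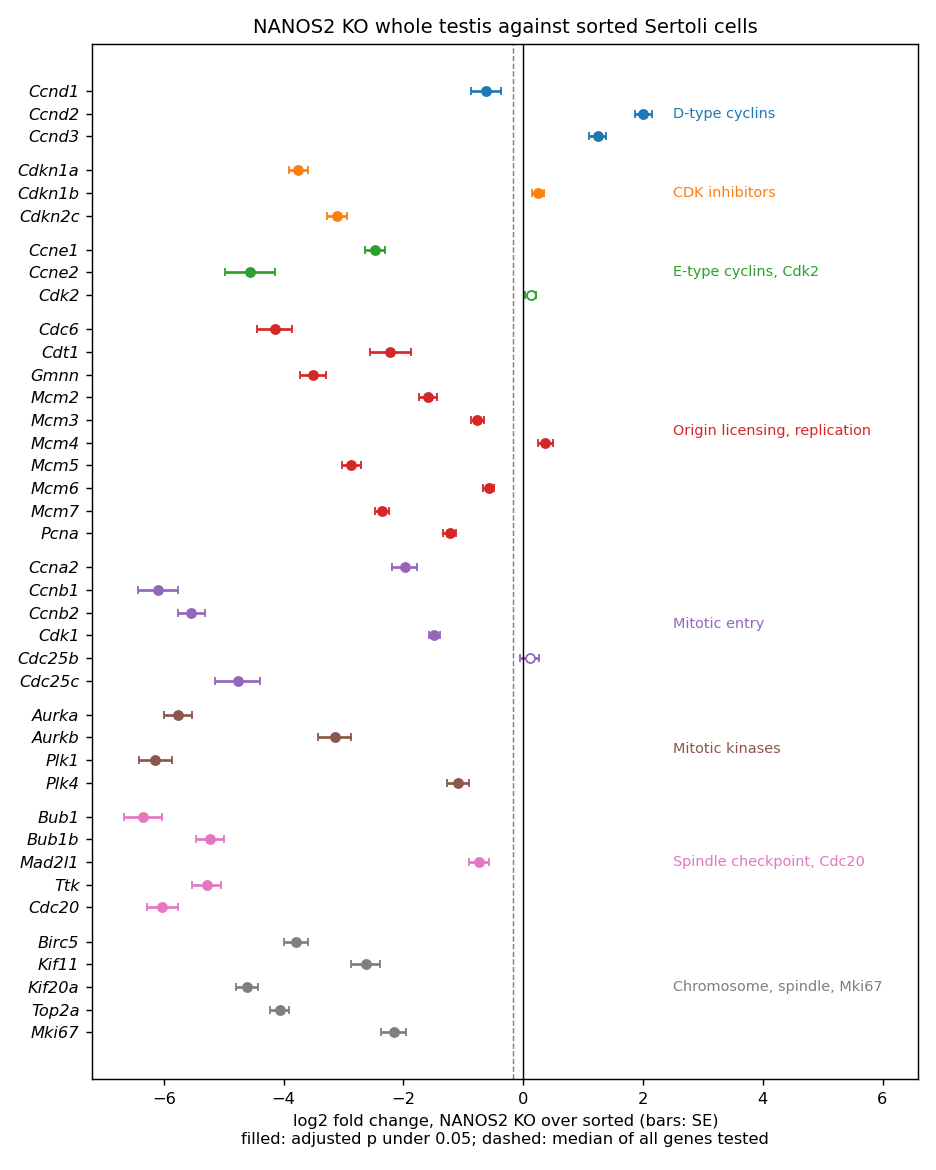
Log2 fold change of each member, NANOS2 KO whole testis over sorted Sertoli cells, with bars for the SE, filled points for adjusted p under 0.05 and a dashed line at the median of all genes tested (-0.17). Bub1, Plk1, Ccnb1 and Cdc20 lie beyond -6, while 6 members lie right of 0, of which Cdk2 and Cdc25b are open points.

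Other genes of the same pathways, taken from lists of 94 genes, went mostly the same way: of 93 tested, 72 were lower and 11 higher in KO testes. Of all genes tested, 47.0% were lower and 38.0% higher. Among them, 33 of 33 mitosis genes tested were lower, led by Kif2c, a microtubule depolymerase (log2 fold change -7.70), and Pttg1, which encodes securin (-4.47). Of 36 replication genes, 25 were lower, such as Chaf1a, a histone chaperone subunit (-4.42), and Rfc2, a clamp loader subunit (-2.67), and 5 were higher, such as the kinase gene Cdc7 (1.04) and Orc4 of the origin recognition complex (1.01). Of 24 genes of G1 control, 14 were lower, such as Skp2, which targets p27 for destruction (-2.64), and Cdkn2d (-2.11), and 6 were higher, such as Myc (5.07) and Rb1, the retinoblastoma gene (1.37). Myc had 3.70 to 7.69 CPM in KO testes and 0 to 0.605 CPM in sorted cells.

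The 5 stage groups of sorted cells were compared next, to ask whether members follow the cycle of the seminiferous epithelium. By an F test over the groups, 3 of 39 members were called (edgeR, adjusted p under 0.05), where 8.07% of 14331 genes were. The highest group mean was in group B for 13 members, C for 11, D for 6, E for 3 and A for 6, where all genes had 14.7, 20.6, 26.0, 17.2 and 21.4% in these groups. The lowest mean was in group D for 14 members and in group E for 14, against 26.3% and 17.8% of all genes.

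Mcm3, a subunit of the replicative helicase, had the smallest p. It was at 88.5 and 125 CPM in group B, 192 and 122 in C, 73.2 and 113 in D, 44.1 and 47.3 in E, and 56.0 and 65.8 CPM in A. Both E libraries were the lowest of the 10, and group E and group A did not overlap with B or C (edgeR adjusted p = 0.0177 for the F test). Group C was higher than the mean of the others by 1.13 on the log2 scale (SE 0.23, edgeR adjusted p = 0.0220), the only member called in that contrast, where 2.64% of all genes were called and 1.95% were higher. Without group C replicate 1 that difference was 0.75 (adjusted p = 0.364), and it also missed the threshold without B replicate 1, D replicate 1 or either E replicate (1.06 to 1.14, adjusted p = 0.0503 to 0.0674). The F test missed it without C replicate 1 (adjusted p = 0.0608), E replicate 1 (0.0970) or E replicate 2 (0.0894).

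Ccnd1 was at 5.02 and 26.7 CPM in group B, 25.7 and 28.7 in C, 6.89 and 17.3 in D, 2.77 and 1.24 in E, and 6.40 and 11.7 CPM in A. Both C libraries were high and both E libraries lowest, while the B replicates spanned most of the range (edgeR adjusted p = 0.0406 for the F test). The call was lost without either library of C, D or E (adjusted p = 0.0690 to 0.234). In single contrasts, group C was 1.81 above the others (SE 0.46, adjusted p = 0.0561) and group E differed from the others by -2.87 (SE 0.65, adjusted p = 0.0660), and neither passed. Ccnd2 was at 15.7 and 10.8 CPM in group B, 13.9 and 9.19 in C, 6.46 and 7.26 in D, 8.55 and 4.98 in E, and 13.3 and 11.5 CPM in A. Ccnd3 was at 28.3 and 55.8 CPM in group B, 31.5 and 47.8 in C, 25.8 and 45.1 in D, 22.0 and 32.3 in E, and 20.1 and 46.1 CPM in A. Neither Ccnd2 nor Ccnd3 was called in any stage contrast, and replicate 2 of Ccnd3 was the higher one in every group.

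Plk1 was at 89.1 and 243 CPM in group B, 167 and 65.1 in C, 12.1 and 21.2 in D, 59.6 and 44.3 in E, and 43.2 and 177 CPM in A. Both D libraries were the lowest of the 10, whereas A, B and C each held a high and a low replicate. The F test gave an edgeR adjusted p of 0.0465, and group D was lower than the others by -2.60 (SE 0.60, edgeR adjusted p = 0.0174), where 4.28% of all genes were lower in D and 8.65% were called. With 1 D library left out the differences were -2.27 (adjusted p = 0.204, without replicate 1) and -3.07 (adjusted p = 0.120, without replicate 2). The F test missed the threshold without B replicate 2, C replicate 1 or either library of D or E (adjusted p = 0.0523 to 0.259), with RLE scaling (0.05003) and with scaling by library totals (0.0537). Ccnb1 was at 51.5 and 86.8 CPM in group B, 84.6 and 35.7 in C, 12.5 and 20.6 in D, 22.2 and 17.4 in E, and 28.6 and 84.8 CPM in A. Groups D and E held the 4 lowest libraries, but neither the F test (edgeR adjusted p = 0.0582) nor group D (-1.47, adjusted p = 0.0699) passed. The F test of Ccnb1 did pass with the replicate number as a block (adjusted p = 0.0445), with DESeq2 (0.00126), with no filter (2.07e-07), and without either library of A or without C replicate 2 (0.00740 to 0.0365). Aurka and Aurkb were likewise low in group D, with 34.0 and 50.2 CPM for Aurka and 2.15 and 5.15 CPM for Aurkb, without passing (-1.68, adjusted p = 0.0542, and -1.61, adjusted p = 0.0570).

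**Figure D3:**
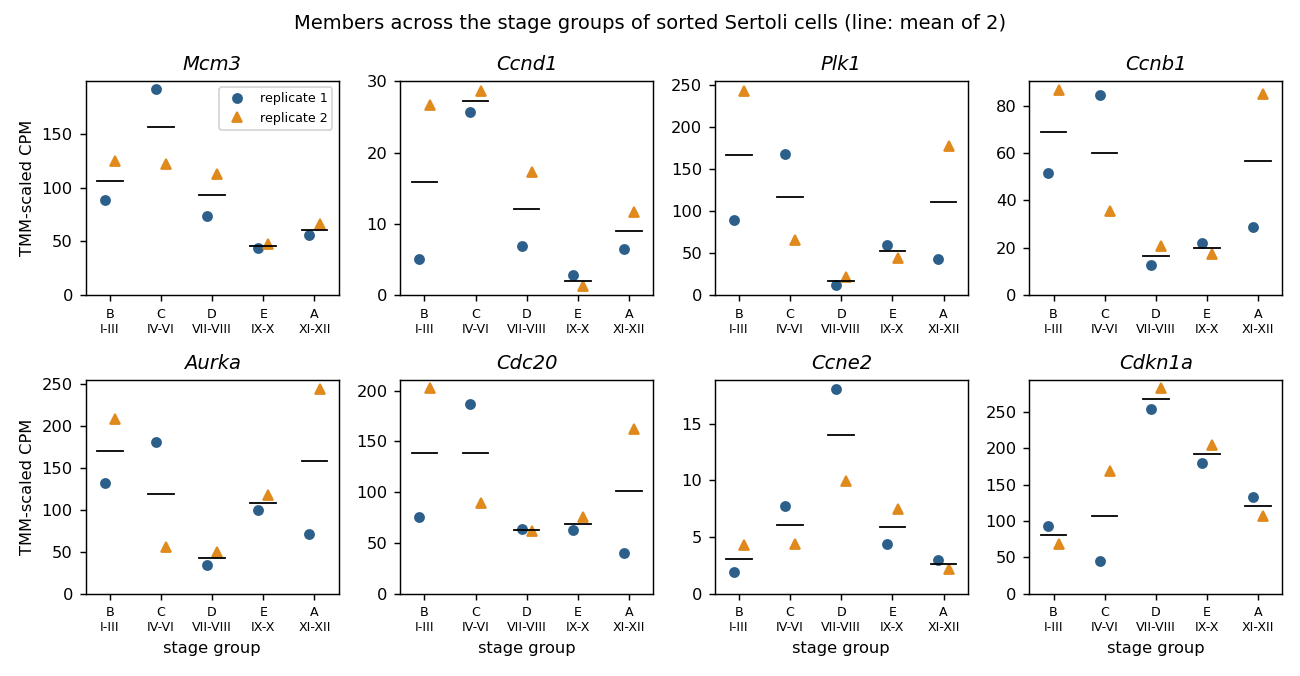
Levels of 8 members in sorted Sertoli cells by stage group, in cycle order from B to A, as TMM-scaled CPM with 1 point per library and a line at the mean of 2. Plk1, Ccnb1 and Aurka are low in both libraries of group D, and their replicates in groups A, B and C lie far apart.

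In addition, 2 members were higher in group D, where 4.36% of all genes were. Ccne2 was at 1.88 and 4.26 CPM in group B, 7.76 and 4.41 in C, 18.1 and 9.99 in D, 4.39 and 7.47 in E, and 2.97 and 2.19 CPM in A. Both D libraries were above all others, and D was higher by 1.74 (SE 0.39, edgeR adjusted p = 0.0153). Without D replicate 1 it was 1.25 (adjusted p = 0.259). Cdkn1a was at 93.5 and 69.0 CPM in group B, 44.9 and 168 in C, 254 and 283 in D, 179 and 205 in E, and 134 and 107 CPM in A. The D libraries were again the highest, followed by both E libraries, and D was higher by 1.18 (SE 0.32, edgeR adjusted p = 0.0385). That call was lost without B replicate 2 or without either library of D or E (1.11 to 1.25, adjusted p = 0.0699 to 0.272). Cdkn1b was at 91.0 and 47.7 CPM in group B, 48.6 and 51.5 in C, 35.8 and 42.4 in D, 62.2 and 70.9 in E, and 92.6 and 66.3 CPM in A, lowest in D but not called. Cdkn2c was at 36.4 and 60.1 CPM in group B, 51.5 and 38.6 in C, 32.7 and 37.8 in D, 45.1 and 75.6 in E, and 30.0 and 71.9 CPM in A, with overlapping groups and no call.

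Groups A, B and E had no member called (edgeR), where 1.67, 0.0419 and 0.523% of all genes were. An unadjusted p under 0.05 was found for 2, 6 and 8 of the 39 members. It was found for 1970, 1298 and 1702 of all 14331 genes. DESeq2 called 0, 0 and 3 members, and the closing section gives its counts over all genes. Other pathway genes called by the F test were 6 of 92, where 8.07% of all genes were called. Among them were Tpx2, a spindle assembly factor, Skp2, Kif2c, Cdkn2b and Tk1, which encodes thymidine kinase. In group D, 5 were higher and 3 lower, where 4.36% of all genes were higher and 4.28% lower. The higher ones were Tk1 (log2 difference 1.58), Cdkn2b (1.13), Cdkn2d (0.81), Tpx2 (0.81) and Racgap1 (0.67). The lower ones were Skp2 (-1.85), Foxm1, a transcription factor of mitotic genes (-1.59), and Kif2c (-1.48). Tpx2 was also higher in group C (1.16) and lower in group E (-1.09).

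The replicates of groups A, B and C differed by unequal amounts from one group of members to the next. In A, B and C the gap was widest for the 4 mitotic kinases, whose summed level was 243 and 486 CPM in group B, 379 and 140 in C, 66.3 and 87.8 in D, 186 and 191 in E, and 148 and 452 CPM in A. The 6 mitotic entry genes summed to 270.0 and 289 CPM in group B, 244 and 199 in C, 202 and 191 in D, 238 and 239 in E, and 229 and 351 CPM in A. In B and C their sums were thus close between replicates, but single members went opposite ways. Ccnb1 and Ccnb2 were higher in B replicate 2 and C replicate 1, like the summed mitotic kinases, and Cdk1 was higher in B replicate 1 and C replicate 2. The replicates of group C also differed in summed Sertoli markers, at 11387 and 18716 CPM, and in summed Leydig markers, at 78.0 and 395 CPM. Of the Leydig markers, Ptgds had by far the highest levels in sorted cells. The part of these differences in the members' levels was not tested. Ccna1, the A-type cyclin of meiosis and one of the spermatocyte markers, followed a like order, with 91.0 and 212 CPM in group B, 169 and 46.0 in C, 12.1 and 19.1 in D, 65.2 and 72.9 in E, and 55.1 and 213 CPM in A. Ccna1 was lower in group D by -2.81 (SE 0.62, edgeR adjusted p = 0.0138) and was at 0 in 17 of 18 KO libraries. The whole spermatocyte list moved less, with 2138 and 4214 CPM in the 2 replicates of group A but 2861 and 2818 CPM in group D. Of 17 spermatocyte markers tested in group D, 2 were higher and 1 lower, and of 17 elongating spermatid markers 11 were lower, with sums of 5066 to 7048 CPM in D and 13203 to 28488 CPM in the other groups. The part of these germ cell transcripts in the stage differences of the members was not tested.

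**Figure D4:**
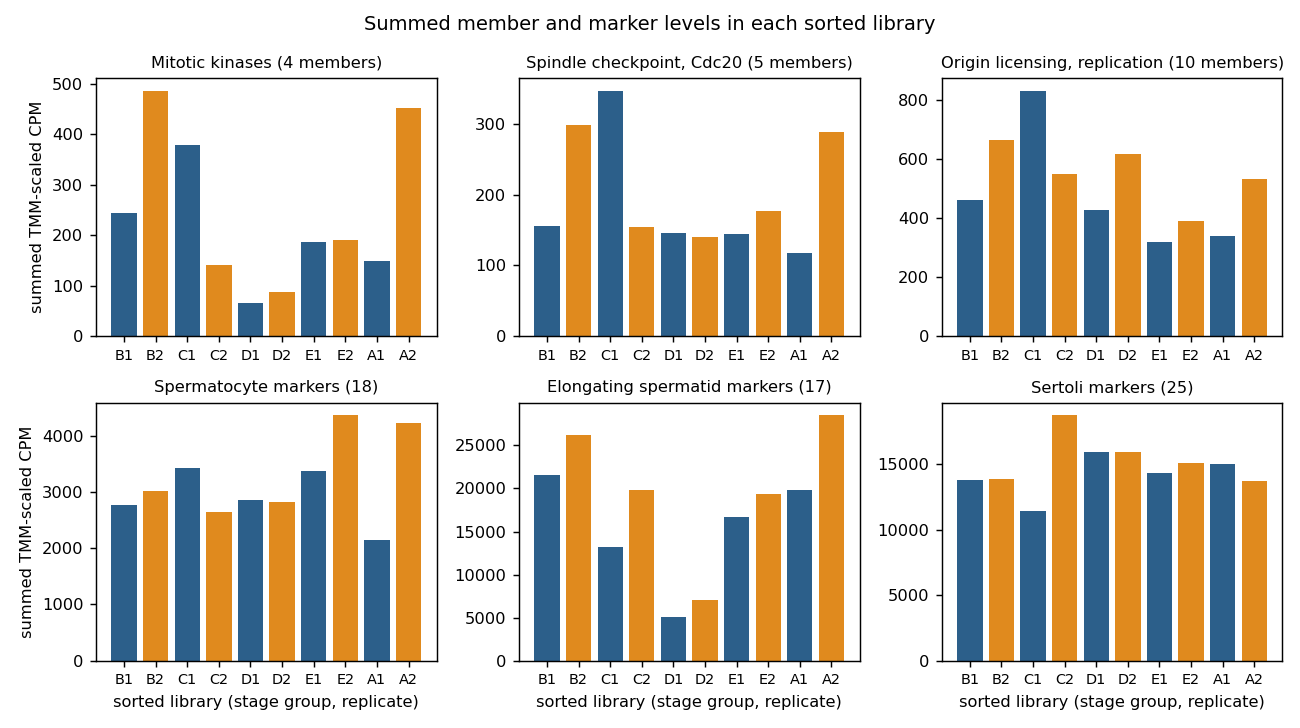
Summed TMM-scaled CPM of 3 member groups and 3 marker lists in each of the 10 sorted libraries, named by stage group and replicate. The sums of the mitotic kinases run from 66.3 to 486 CPM with unequal replicates in A, B and C, and the Sertoli markers run from 11387 to 18716 CPM, both in group C.

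The last comparison asked whether members vary over the 9 days of a seminiferous cycle in KO testes. Of the 39 members, 23 passed the filter on low counts, and 16, mostly of mitosis, did not. No member was called by the F test over days, by a straight line over days or by a sine and cosine fit whose period was 8.6 days (edgeR), where 0.582, 0.857 and 0% of 13065 genes were called. At an unadjusted p under 0.05 there were 1, 0 and 1 of the 23 members, and 1455, 1958 and 1262 of the 13065 genes. DESeq2 called no member in the 3 tests. The biological coefficient of variation was 0.122 in KO testes and 0.268 in sorted cells, so the KO libraries were the more alike.

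Cdkn1a had the smallest p of the F test and of the cyclic fit. From day 42 to day 50 its pairs of libraries were at 12.3 and 14.3, 10.98 and 13.1, 6.15 and 6.51, 12.1 and 8.95, 6.54 and 9.33, 8.01 and 7.39, 13.8 and 9.72, 15.8 and 9.68, and 19.7 and 9.67 CPM. The lowest pair was on day 44 and the pairs of days 49 and 50 were uneven (edgeR adjusted p = 0.374 for the F test and 0.329 for the cyclic fit, with the fitted peak at day 49.8). Mcm7 had the smallest p of the line, at 0.040 log2 units per day (SE 0.02, edgeR adjusted p = 0.374). Its pairs from day 42 on were at 40.0 and 29.0, 26.5 and 31.7, 30.5 and 27.8, 33.3 and 30.9, 38.4 and 29.3, 31.1 and 30.3, 34.8 and 37.0, 52.8 and 36.0, and 29.9 and 37.7 CPM, with day 49 replicate 1 far above the rest. Without that library, which also stood apart in stromal markers and mitochondrial share, the slope was 0.023 log2 units per day.

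The remaining members with the smallest p differed in how far their levels ranged. Cdk2 kept within 88.4 to 126 CPM, with daily means of 121 CPM on day 42 and 89.2 CPM on day 46 at its ends, and Cdc25b had daily means of 11.01 CPM (day 47) to 22.0 CPM (day 49). Cdkn1b had daily means of 60.2 CPM (day 42) to 76.0 CPM (day 48), Cdk1 of 36.2 CPM (day 45) to 49.5 CPM (day 46), and Pcna of 16.6 CPM (day 42) to 29.0 CPM (day 48). None of these differences between days passed a test. Ccnd1, Ccnd2, Ccnd3 and Cdkn2c had daily means of 4.62 to 8.69, 32.1 to 49.5, 67.2 to 91.5 and 3.17 to 7.59 CPM. Of 66 other pathway genes tested, the F test called Tpx2 (edgeR adjusted p = 0.0331), and neither the line nor the cyclic fit called any.

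**Figure D5:**
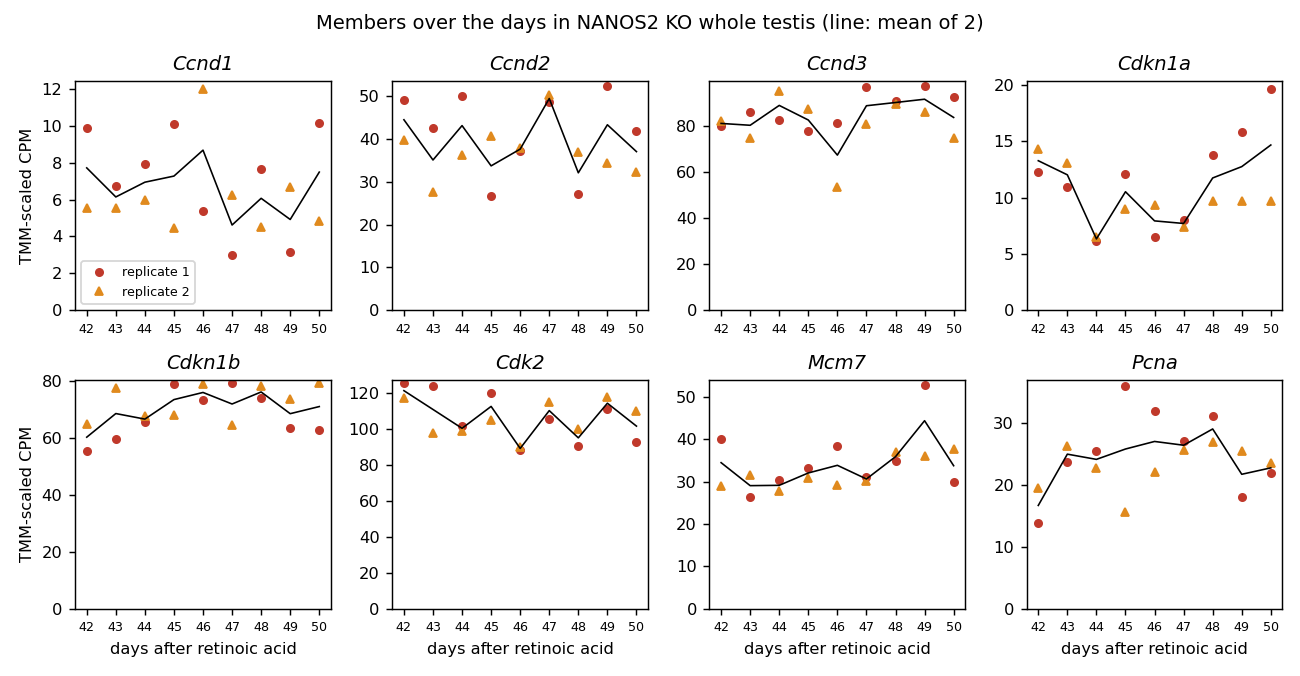
Levels of 8 members in NANOS2 KO whole testis from day 42 to day 50 after retinoic acid, as TMM-scaled CPM with 1 point per library and a line through the means of 2. No member was called over the days, and Cdkn1a was lowest in both libraries of day 44.

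For 17 of the 39 members the span of another annotated gene (GENCODE M21, GRCm38), introns included, overlaps. Whether counting used strand is not given in the sources used here. For these 17 members, reads from the shared stretch may therefore not be told apart from those of the partner. Among these are Mcm7 (chr5:138164583-138172422, with Cops6 and Ap4m1 on the opposite strand), Cdk2 (chr10:128697939-128705031, with Pmel), Cdc20 (chr4:118432901-118437352, with Elovl1), Ccnd3 (chr17:47505051-47599691, with Bysl) and Kif20a, with Cdc23.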

How the data were processed

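Bowtie, TopHat and Cufflinks with build mm10 are named in the submitters' processing notes, with versions, counter and annotation not given in the sources used here. Counts deposited by the authors are raw, with 43280 gene rows and a column for each library. Values in the FPKM tables that the authors deposited are in fact CPM, within 0.0005 of CPM computed from the counts, and served as a check. A header of day 42 occurs on 2 count columns of the KO, which were told apart by the CPM columns with the same values. Of the symbols, 27 had become dates and are not named.

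The counts were filtered (filterByExpr), TMM-scaled and tested by the quasi-likelihood F test of edgeR 4.0.16 in R 4.3.3, and p-values were adjusted over all genes tested by Benjamini-Hochberg with a threshold of 0.05. Stage groups, KO days and KO against sorted were 3 separate fits. Levels in the text are CPM scaled over all 28 libraries (TMM factors 1.07 to 1.14 in KO, 0.796 to 0.887 in sorted libraries). The scripts were tested on simulated data. The members, lists and tests were chosen with earlier results of these data known. Values by library are given for the D-type cyclins, the CDK inhibitors, the smallest p of each F, line and cyclic test, the largest called rises and falls in KO against sorted, and members called in a stage contrast. RLE scaling, no filter on low counts, DESeq2 1.42.0, a block for the replicate number, scaling by library totals (added later) and leaving out each library were tried as alternatives.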

Additional observations from a re-analysis of the deposited data

How the results depend on the processing

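In KO against sorted, 36 to 37 members were called with 1 library left out (13226 to 13431 genes) and 37 to 38 under the other alternatives, and no called member changed sign. RLE scaling and library totals moved no count by over 1.5 times. The stage and day counts moved with the tool and the filter, and the cause was not tested. Members called by the stage F test were 12 with no filter and 9 with DESeq2, in place of 3 (genes 2764 and 2000, in place of 1156). With no filter, groups A, B, C, D and E had 1, 3, 4, 6 and 4 members called and 901, 307, 988, 1932 and 651 genes. With DESeq2, groups C, D and E had 3, 6 and 3 members, and groups A, B, C and E had 527, 108, 649 and 285 genes. Genes called in D by DESeq2 stayed within 1.5 times of the 1239 of the main fit. Over KO days, no filter gave 968 genes (F) and 359 (cycle), and DESeq2 gave 215 (F), 212 (line) and 60 (cycle), in place of 76, 112 and 0. Over the 10 pairs of stage groups, the deviations of same-numbered replicates correlated at -0.114 to 0.444, with a median of 0.207. Over the 36 pairs of days they correlated at -0.275 to 0.133, with a median of -0.0077. The main fits did not take the replicate numbers as pairs, although such deviations were in part shared among the sorted libraries. With the replicate block, the stage F test called 4 members and 1670 genes. Members were then 2 in C, 5 in D and 1 in E, and genes were 477 in A, 24 in B, 170 in E and 65 for the line. Genes called in C and D with the block stayed within 1.5 times of the 379 and 1239 of the main fit. Leaving out 1 library gave 0 to 5 members by the stage F test (386 to 1518 genes), 0 in A (85 to 297), 0 to 1 in B (0 to 72), 0 to 2 in C (163 to 580), 0 to 6 in D (289 to 1739), 0 to 1 in E (0 to 296), and 0 over days (18 to 879, 4 to 215 and 0 to 9 genes for F, line and cycle). Where 1 library was left of a group, it was assumed to vary like the others. Depth limits the KO levels of Bub1, Ccnb1, Ccne2 and Cdc25c, of which 5 to 9 libraries were at 0. It also limits those of other members, such as Plk1, Ccnb2, Ttk and Cdc6. These had at most 9, 5, 4 and 8 counts in any KO library.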
